A study of Homo sapiens with 4 samples.

Results

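The genes described here are 10 genes of the endosomal sorting complex required for transport (ESCRT) that act at the last step of membrane cutting: *VTA1*, *VPS4A*, *VPS4B*, *CHMP1A*, *CHMP2A*, *CHMP2B*, *CHMP4A*, *CHMP4B*, *CHMP4C* and *CHMP5*. They are 10 of the 18398 RefSeq genes listed in each of 4 RNA sequencing libraries, and were taken by gene symbol. *VTA1* was picked because its level was lower after *CDCA8* knockdown in both cell lines, so that difference is described below without a test. The other 9 genes are its partners and *CHMP4C*, a gene of the checkpoint on the last step of cell division. Huh1 and Huh7 are established human hepatocellular carcinoma (HCC) cell lines, and both were sequenced 48 h after lipid transfection with a non-targeting siRNA (NCsiRNA) or with CDCA8-1siRNA, 1 of the siRNAs against *CDCA8*, each at 15 nM. There was 1 library for each cell line and siRNA, so no condition had a replicate, and 1 siRNA sequence stands for the knockdown. No donor tissue was used, each line stands for 1 tumor, and all 4 libraries came from transfected cells.

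ESCRT-III proteins (the CHMP family) are small soluble subunits that assemble into filaments on the inner face of a membrane neck and narrow it until it is cut. VPS4A and VPS4B are the ATPases that pull these filaments apart, and VTA1 is their cofactor, which binds VPS4 and the ESCRT-III subunit CHMP5 and stimulates VPS4 activity. The same machinery buds vesicles into endosomes, closes the nuclear envelope and cuts the bridge between daughter cells at the end of division, a step called abscission. CDCA8 (borealin) is a subunit of the chromosomal passenger complex, which holds back abscission while chromatin remains in the bridge by acting on CHMP4C. The siRNA therefore targets a regulator of the step in which these genes work.

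The start-site sequences of 3 of the genes are shown because the results turn on them: *VTA1* differed between siRNAs, *CHMP4A* differed between cell lines, and *CHMP4B* is the paralogue of *CHMP4A* that was read at a similar level in both lines. Each runs from 250 bases before to 50 bases after the RefSeq start of the gene on GRCh38.p14, 5′ to 3′ on the strand of the gene, with every CG dinucleotide in capitals. The windows are chr6:142147013-142147312 on the + strand for *VTA1*, chr14:24213439-24213738 on the - strand for *CHMP4A* and chr20:33811098-33811397 on the + strand for *CHMP4B*.
VTA1: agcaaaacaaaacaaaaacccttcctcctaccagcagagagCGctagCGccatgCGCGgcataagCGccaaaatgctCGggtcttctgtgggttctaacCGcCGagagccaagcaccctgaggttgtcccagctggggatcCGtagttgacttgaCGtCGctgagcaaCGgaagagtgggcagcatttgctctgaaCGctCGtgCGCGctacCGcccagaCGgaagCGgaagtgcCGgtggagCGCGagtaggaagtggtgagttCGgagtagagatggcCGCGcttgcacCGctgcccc
CHMP4A: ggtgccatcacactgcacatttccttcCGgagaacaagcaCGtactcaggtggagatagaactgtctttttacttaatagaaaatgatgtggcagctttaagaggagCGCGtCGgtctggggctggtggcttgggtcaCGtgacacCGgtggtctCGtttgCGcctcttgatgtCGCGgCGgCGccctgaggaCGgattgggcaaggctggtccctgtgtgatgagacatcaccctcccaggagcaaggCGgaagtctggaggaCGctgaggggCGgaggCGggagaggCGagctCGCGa
CHMP4B: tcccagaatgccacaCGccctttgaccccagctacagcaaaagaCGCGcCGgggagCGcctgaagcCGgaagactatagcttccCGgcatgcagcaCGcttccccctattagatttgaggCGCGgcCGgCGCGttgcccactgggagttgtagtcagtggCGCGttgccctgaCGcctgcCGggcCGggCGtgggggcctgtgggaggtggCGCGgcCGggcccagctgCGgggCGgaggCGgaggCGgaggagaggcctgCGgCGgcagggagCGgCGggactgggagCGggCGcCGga

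The *VTA1* window held 26 CG dinucleotides, the *CHMP4A* window 21 and the *CHMP4B* window 33, against a median of 14 over 35116 RefSeq promoter windows of the same length. At least as many CG dinucleotides were found in 30.1% of all windows for *VTA1*, 39.5% for *CHMP4A* and 17.2% for *CHMP4B*. The E-box letters CACGTG, which read the same on both strands, occurred in the *CHMP4A* window and in none of the other 8 member windows that were searched, while 7.26% of all windows held them. The letters TTTGAA, the core of the cell cycle genes homology region, were searched on both strands and occurred in the *CHMP2B* window only, against 15.2% of all windows. These matches describe letters and not bound sites, and *CHMP4C* was not searched.

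Library totals recovered from the deposited values lay between 12197606 and 13384836 reads. The values were read as RPKM (reads scaled to transcript length and to the mapped reads of the library), a scale meant for comparing genes. Comparisons between genes here also depend on the transcript lengths that the authors used, which were not given. *CDCA8* itself was read at 24.1 RPKM in Huh1 cells with NCsiRNA and 5.86 RPKM with CDCA8-1siRNA, and at 51.5 and 7.36 RPKM in Huh7 cells, so 24.3% and 14.3% of the control level remained and both knockdown libraries carry the low level of the targeted gene. All 9 liver and HCC markers looked for, among them *ALB*, *AFP* and *APOA1*, were found in every library. Their summed level was 5168 RPKM (NCsiRNA) and 3956 RPKM (CDCA8-1siRNA) in Huh1 cells and 3293 and 2327 RPKM in Huh7 cells, and 8 of the 9 were lower with CDCA8-1siRNA in each line. The 2 endothelial markers measured were below 1 RPKM in every library. The summed level of 3 fibroblast markers was 0.128 and 0.15 RPKM in Huh1 cells and 139 and 183 RPKM in Huh7 cells. Nearly all of the Huh7 sum came from *COL1A1* and *COL1A2*, while *DCN*, the other fibroblast marker, was below 1 RPKM in every library. Of the 3 blood markers, *PTPRC* and *HBB* were below 1 RPKM in every library, and *CD68*, a macrophage marker, was read at 23.3 and 16.5 RPKM in Huh1 cells and 3.71 and 3.73 RPKM in Huh7 cells. The part of these differences in the results was not tested. In bulk RNA, fewer cells that express a gene and less RNA per cell cannot be told apart.

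**Figure D1:**
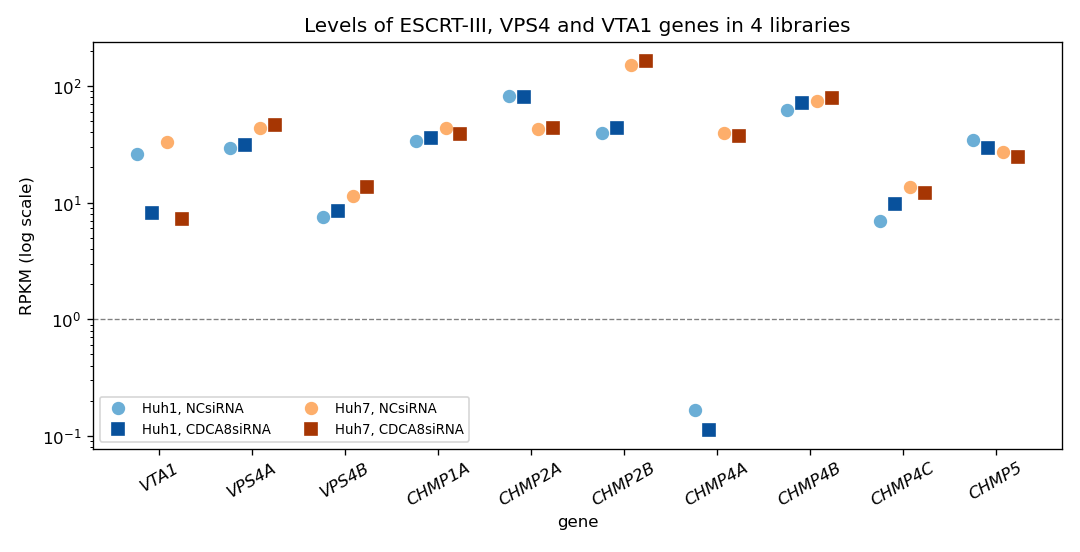
RPKM of the 10 genes (vertical axis, log scale) in the 4 libraries, 1 point a library, with circles for NCsiRNA and squares for CDCA8-1siRNA. The squares of *VTA1* lie well below its circles in both lines, the Huh1 points of *CHMP4A* lie below the dashed line at 1 RPKM, and *CHMP2A* and *CHMP2B* differ between the lines in opposite directions.

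*VTA1*, the VPS4 cofactor, was read at 26.0 RPKM in Huh1 cells with NCsiRNA and 8.15 RPKM with CDCA8-1siRNA. In Huh7 cells it was read at 33.1 RPKM with NCsiRNA and 7.19 RPKM with CDCA8-1siRNA. Both control values lay above both knockdown values, which follows largely from how *VTA1* was picked and is no separate result. The remaining level was 31.4% of control in Huh1 cells and 21.7% in Huh7 cells. On the log2(RPKM + 1) scale, which understates the change of low genes, the difference of CDCA8-1siRNA from NCsiRNA was -1.56 in Huh1 cells and -2.06 in Huh7 cells.

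The *VTA1* values rest on at least 320 reads (NCsiRNA) and 99.1 reads (CDCA8-1siRNA) in Huh1 cells, and on at least 372 and 81.2 reads in Huh7 cells, if the reads were counted over the coding length alone. The widest 95% interval that counting error then gives to the RPKM ratio (exact binomial, conditioned on the summed reads) was 0.248 to 0.394 in Huh1 cells and 0.168 to 0.276 in Huh7 cells. They give the precision of the values that chose *VTA1* and are no test of its difference. All such intervals cover counting error only and not the spread between cultures, which 1 library a condition cannot give. The difference in Huh7 cells exceeded that in Huh1 cells by 0.50 on the log2(RPKM + 1) scale, with a counting SD of at most 0.24 on the log2 ratio scale, and was not tested. *VTA1* has 2 annotated pseudogenes, *VTA1P1* and *VTA1P2*, so reads that match a copy could have been counted for it. The likeness of the sequences and the placing of such reads were not checked.

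Among genes that reached 1 RPKM with either siRNA in a line, *VTA1* had the 2nd lowest difference of 10940 genes in Huh1 cells and the 6th lowest of 11565 genes in Huh7 cells, and *CDCA8* had the lowest in both. A level lower by at least 2-fold was found for 0.174% of genes in Huh1 cells (19 genes) and 0.7% in Huh7 cells (81 genes), and 1 of the 9 and 1 of the 10 members measured was among them, *VTA1* in both. In both lines at once, 10 of 10357 genes (0.0966%) were lower by at least 2-fold, and these included *CDCA8*, *VTA1* and no other member. A level higher by at least 2-fold was found for 0.32% of genes in Huh1 cells and 0.873% in Huh7 cells, and for no member in either. Since *VTA1* was picked on this contrast, these counts only describe how it was chosen.

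**Figure D2:**
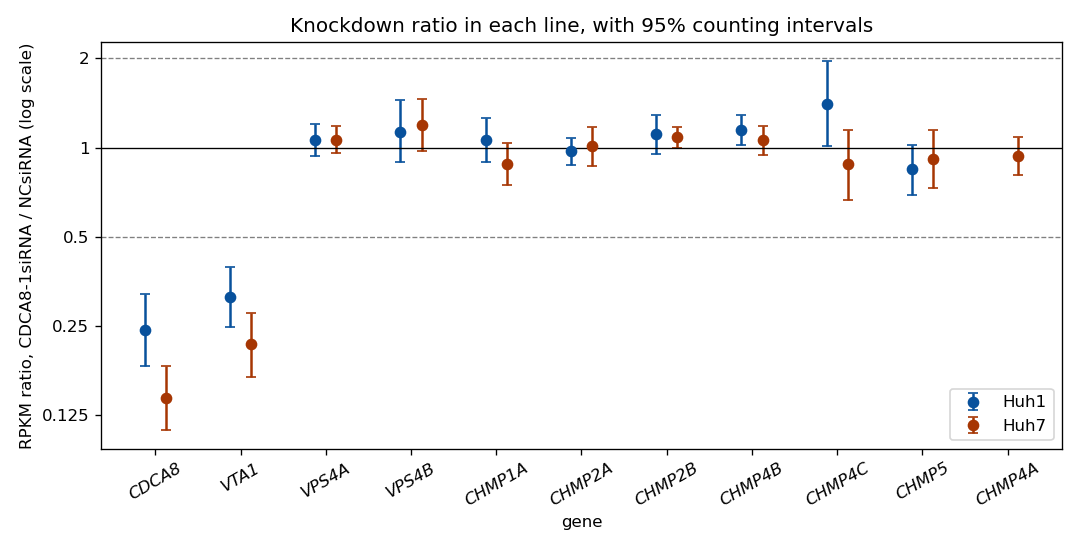
Ratio of RPKM with CDCA8-1siRNA to RPKM with NCsiRNA (vertical axis, log scale) for *CDCA8* and the 10 genes in Huh1 (blue) and Huh7 (brown), with bars for the widest 95% counting interval and dashed lines at 2-fold. *VTA1* lies at 0.314 and 0.217, next to *CDCA8* at 0.243 and 0.143, and every other gene lies within 2-fold; *CHMP4A* is drawn for Huh7 alone.

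The genes whose profile over the 4 libraries was most like that of *VTA1* were *TMEM176B*, *SLC25A15*, *LMNB1*, *CCDC115* and *CCNC*, by Euclidean distance between log2(RPKM + 1) profiles, each centred on its own mean, over 12148 genes. The distances ran from 0.207 for *TMEM176B* to 0.561 for *CCNC*, and the distance of *CDCA8* was 0.752. *TMEM176B*, a membrane protein gene, was read at 32.9 and 10.9 RPKM in Huh1 cells and 39.9 and 7.82 RPKM in Huh7 cells, close to *VTA1* in all 4 libraries. *LMNB1*, which encodes the nuclear lamina protein lamin B1, was read at 51.6 and 23.5 RPKM in Huh1 cells and 63.2 and 20.4 RPKM in Huh7 cells. Since the lists were left out of the ranking, no listed ESCRT gene could be among the 5.

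The VPS4 ATPases did not share the low level of their cofactor. *VPS4A* was read at 29.6 and 31.4 RPKM in Huh1 cells and at 43.3 and 46.0 RPKM in Huh7 cells, with NCsiRNA and CDCA8-1siRNA in that order. *VPS4B* was read at 7.48 and 8.45 RPKM in Huh1 cells and at 11.4 and 13.6 RPKM in Huh7 cells. Both genes were slightly higher with CDCA8-1siRNA in each line, and neither passed the test over both lines. For that test, limma fitted cell line and siRNA together to the 4 libraries and its p-values carry a Benjamini-Hochberg adjustment over the 12148 genes tested. The fit has 1 residual degree of freedom of its own, which is the difference of the siRNA response between the 2 lines. Its variance is drawn mostly from the other genes, with 7.48 prior degrees of freedom. The p-values thus do not measure the spread between replicate cultures. Its log2 difference was 0.08 ± 0.09 (SE) for *VPS4A* (adjusted p = 0.624) and 0.20 ± 0.11 for *VPS4B* (adjusted p = 0.32).

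The ratio of *VTA1* to the summed RPKM of *VPS4A* and *VPS4B* was 0.701 in Huh1 control cells and 0.205 after knockdown. In Huh7 cells the same ratio was 0.606 in control cells and 0.121 after knockdown. In RNA terms, cofactor was thus less abundant relative to enzyme in both knockdown libraries. The share of *VPS4B* in the VPS4 sum stayed between 20.2% and 22.8% in the 4 libraries.

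*CHMP5*, the ESCRT-III subunit that binds VTA1 directly, was read at 34.5 and 29.2 RPKM in Huh1 cells and 26.9 and 24.7 RPKM in Huh7 cells. It was lower with CDCA8-1siRNA in both lines, at 84.6% and 91.8% of control. The widest counting intervals of the ratio, at the coding length, included 1 (0.694 to 1.02 and 0.733 to 1.15). At a length of 1957 bases the values correspond to more reads, 903 and 753 in Huh1 cells and 642 and 593 in Huh7 cells. Intervals on those reads would be narrower and were not computed, so whether they include 1 is not given. The limma difference of -0.18 ± 0.09 (SE) did not pass (adjusted p = 0.318).

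*CHMP4B*, a filament-forming subunit and the most abundant *CHMP4* RNA in these cells, was read at 62.5 and 71.5 RPKM in Huh1 cells and 74.6 and 78.9 RPKM in Huh7 cells. The Huh1 ratio of 1.14 had a counting interval of 1.02 to 1.28, which leaves out 1, while the Huh7 ratio of 1.06 (0.947 to 1.19) did not. Over both lines its limma difference was 0.14 ± 0.09 (SE; adjusted p = 0.388).

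*CHMP4C*, the subunit through which the chromosomal passenger complex delays abscission, was read at 6.96 and 9.78 RPKM in Huh1 cells and at 13.7 and 12.0 RPKM in Huh7 cells. Its level with CDCA8-1siRNA was 140% of control in Huh1 cells (ratio interval 1.01 to 1.96) and 87.8% in Huh7 cells (0.665 to 1.15). The lines thus gave opposite directions for *CHMP4C*, and its limma difference over both was 0.13 ± 0.15 (SE; adjusted p = 0.647).

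*CHMP2A* and *CHMP2B* cap and reshape the filament and recruit VPS4. *CHMP2A* was nearly the same with either siRNA, and *CHMP2B* was slightly higher with CDCA8-1siRNA in each line. *CHMP2A* was read at 82.4 and 80.2 RPKM in Huh1 cells and 42.9 and 43.3 RPKM in Huh7 cells. *CHMP2B* was read at 39.1 and 43.6 RPKM in Huh1 cells and 151 and 164 RPKM in Huh7 cells. Its level with CDCA8-1siRNA was 111% of control in Huh1 cells (ratio interval 0.956 to 1.29). In Huh7 cells it was 108% (1.001 to 1.17, which just leaves out 1). *CHMP1A*, a late subunit that binds VPS4, was read at 33.8 and 35.9 RPKM in Huh1 cells and 43.9 and 38.6 RPKM in Huh7 cells. The limma differences of these 3 genes lay between -0.05 and 0.13, with adjusted p from 0.382 to 0.948. *CHMP1A* and *CHMP4B* each have 1 annotated pseudogene, so their reads carry the same uncertainty as those of *VTA1*.

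At an adjusted p of 0.05, 0 of the 9 members other than *VTA1* passed the limma knockdown test in either direction. An unadjusted p under 0.05 was found for 0 of these 9 and for 22.8% of all genes. Among all 12148 genes, 3.74% passed as higher and 2.65% as lower, and 0 of 9 against that background is no result about the members. The median difference of the 10 members, *VTA1* included, was 0.04, against 0.03 over all genes. The 9 genes other than *VTA1* lay between -0.18 and 0.20 on the log2 scale.

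The other genes of the pathway were taken as 5 lists with 32 genes, of which 31 could be tested. *CEP55*, which recruits ESCRT proteins to the midbody at abscission, was read at 51.3 and 41.2 RPKM in Huh1 cells and 50.5 and 34.9 RPKM in Huh7 cells, lower with CDCA8-1siRNA in both lines, and it alone passed, as lower (-0.42 ± 0.10 (SE), limma adjusted p = 0.0394). With 1 of 31 genes called lower, against 2.65% of all genes, the count is about the background, and the call was lost in some other settings of the fit, with an adjusted p of 0.268 with no minimum level, 0.128 without a trend of variance on level and 1 without cell line in the fit. None of the 5 other ESCRT-III genes, 8 ESCRT-I genes, 3 ESCRT-II genes and 3 ESCRT-0 genes tested passed, and none of the 32 genes reached 2-fold in either line where it was measured. The median difference of the 31 genes was 0.04, about that of all genes.

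*CHMP4A*, *CHMP2B*, *CHMP2A*, *VPS4A* and *VPS4B* differed more between the cell lines than between the siRNAs, whereas the differences of *CHMP4B* were small in both comparisons. *CHMP4C* did so only on average (0.58 against 0.13), since its siRNA differences of 0.44 in Huh1 cells and -0.17 in Huh7 cells partly cancel. For *CHMP1A* (0.23 against -0.05) and *CHMP5* (-0.29 against -0.18) the average line difference was also the larger. The share of all genes that differed more between lines was not counted. The comparison of Huh7 with Huh1, made in the same limma fit with siRNA as the other term, did not use the contrast on which *VTA1* was picked. Of the 10357 genes that reached 1 RPKM in both lines, 67.6% passed at an adjusted p of 0.05, 39% as higher and 28.6% as lower in Huh7 cells, so a pass by itself is common. All members but *CHMP4A* were among those genes, and 6 of these 9 passed, 4 higher and 2 lower in Huh7 cells, which is close to that background and is no result about the members. What follows therefore gives sizes, and the median difference of all 12148 genes in the fit, 0.14, is the level to read them against.

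*CHMP4A* had the widest gap of the 10 genes. It was read at 0.165 RPKM (NCsiRNA) and 0.112 RPKM (CDCA8-1siRNA) in Huh1 cells, and at 39.5 and 37.2 RPKM in Huh7 cells. The Huh1 values lay below the 1 RPKM minimum, so no knockdown difference is given for *CHMP4A* in Huh1 cells. Of the lengths within 10% of the annotated 1393 bases, 1356 bases was the one at which all 4 values came out whole to within 0.002 reads, and there they correspond to 3 and 2 reads in Huh1 cells and 653 and 618 reads in Huh7 cells. The Huh7 level was 239-fold that of Huh1 with NCsiRNA (95% counting interval 81.4 to 1161) and 332-fold with CDCA8-1siRNA (91.6 to 2750). The difference of the line means on the log2(RPKM + 1) scale was 5.11, or 4.97 above the median of all genes. Because *CHMP4A* reached the minimum through Huh7 cells alone, it had to differ once it was kept, and no test is given for it.

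*CHMP4A* therefore made up 0.238% and 0.137% of the summed *CHMP4A*, *CHMP4B* and *CHMP4C* level in Huh1 cells and 30.9% and 29.0% in Huh7 cells. *CHMP4B* made up 89.8% and 87.8% of that sum in Huh1 cells and 58.4% and 61.6% in Huh7 cells. The share of *CHMP4C* was similar in the 4 libraries, from 9.37% to 12.0%. The sum itself was 69.6 and 81.4 RPKM in Huh1 cells and 128 RPKM in both Huh7 libraries, so the Huh7 excess in the CHMP4 sum was mostly *CHMP4A*.

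**Figure D3:**
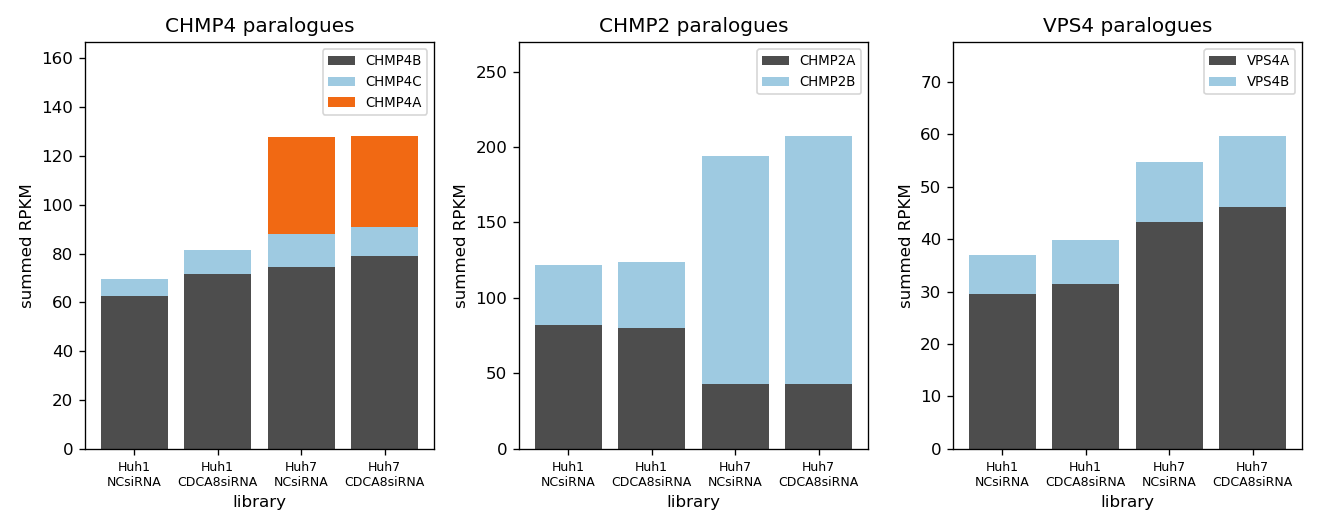
Stacked RPKM of the CHMP4, CHMP2 and VPS4 paralogues (vertical axes, from 0) in the 4 libraries. *CHMP4A* (orange) is seen in the Huh7 bars only, *CHMP2B* (light blue) makes up 32.2% and 35.2% of the CHMP2 sum in Huh1 cells and 77.9% and 79.1% in Huh7 cells, and the split of VPS4 is alike in all bars.

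The genes next to *CHMP4A* on its chromosome, in RefSeq gene order on GRCh38.p14, were read as a description. *MDP1*, a phosphatase gene and the next gene on one side, was read at 1.34 and 0.485 RPKM in Huh1 cells and 13.2 and 9.19 RPKM in Huh7 cells. *TSSK4*, a testis kinase gene and the next on the other side, was read at 0.188 and 0.0586 RPKM in Huh1 cells and 1.84 and 2.02 RPKM in Huh7 cells. Both were thus lower in Huh1 cells as well, though by less than *CHMP4A*. The next genes outward, *TM9SF1* and *NEDD8*, were well read in Huh1 cells, at 26.6 and 26.8 RPKM and at 186 and 199 RPKM, and their Huh7 levels were 1.18 to 1.54 times as high. Farther out, *IPO4* was read at 26.7 and 28.7 RPKM in Huh1 cells and 60.5 and 58.8 RPKM in Huh7 cells, and *REC8* at 0.62 and 0.51 RPKM in Huh1 cells and 1.36 and 1.61 RPKM in Huh7 cells. Both were thus also lower in Huh1 cells, by 2.05- to 3.16-fold. The ratio of Huh7 to Huh1 was 9.79 and 34.4 for *TSSK4* and 9.88 and 18.9 for *MDP1*. In Huh1 cells *TSSK4* and *REC8* lay below 1 RPKM in both libraries, and *MDP1* did so with CDCA8-1siRNA. Ratios on such low values are imprecise, and no counting interval was computed for the neighbours. These neighbours were picked by position, and their difference from *CHMP4A* was not tested.

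**Figure D4:**
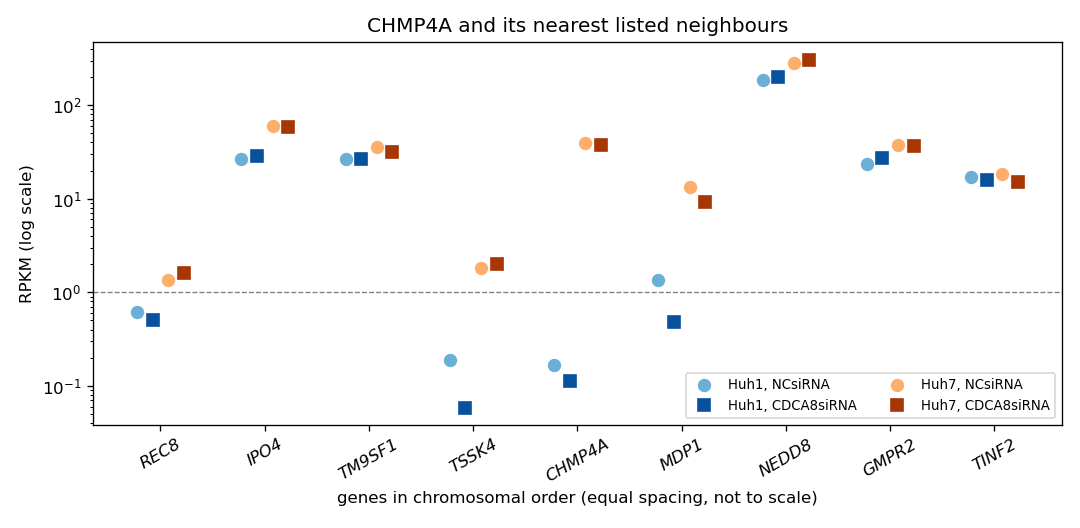
RPKM (vertical axis, log scale) of *CHMP4A* and the 4 listed genes on either side, in chromosomal order with equal spacing, 1 point a library. The Huh1 points (blue) drop at *TSSK4*, *CHMP4A* and *MDP1* and lie near the Huh7 points (orange and brown) at *TM9SF1*, *NEDD8*, *GMPR2* and *TINF2*, with a gap of 2.05- to 3.16-fold at *IPO4* and *REC8*; the dashed line marks 1 RPKM.

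The CHMP2 paralogues changed places between the lines. *CHMP2A* had 2.11 times the RPKM of *CHMP2B* in Huh1 control cells and 1.84 times after knockdown, whereas *CHMP2B* had 3.53 and 3.78 times the RPKM of *CHMP2A* in Huh7 cells. *CHMP2B* was higher in Huh7 cells by 1.90 ± 0.08 (SE, log2; limma adjusted p = 1.74e-07), and *CHMP2A* was lower, with a log2 difference of -0.90 ± 0.09 (adjusted p = 2.07e-05). Both libraries of a line agreed in this order, which only describes these genes.

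Both ATPases were higher in Huh7 cells by similar amounts. The log2 difference was 0.54 ± 0.09 (SE) for *VPS4A* (limma adjusted p = 0.000665) and 0.59 ± 0.11 for *VPS4B* (adjusted p = 0.00109), or 0.40 and 0.44 above the median of all genes. *CHMP4C* was higher by 0.58 ± 0.15 (limma adjusted p = 0.0073). Most of the *CHMP4C* gap lay in the control libraries, at 0.88, with 0.27 in the knockdown libraries, and its call was lost with no minimum level (adjusted p = 0.0705). *CHMP5* was lower in Huh7 cells, with a difference of -0.29 ± 0.09 (limma adjusted p = 0.0227), which did not pass without a trend of variance on level (adjusted p = 0.0503) or without siRNA in the fit (0.109).

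*VTA1*, *CHMP1A* and *CHMP4B* did not pass between lines. The limma differences were 0.09 ± 0.13 (SE) for *VTA1* (adjusted p = 0.56), 0.23 ± 0.10 for *CHMP1A* (adjusted p = 0.0628) and 0.20 ± 0.09 for *CHMP4B* (adjusted p = 0.0663). For *VTA1* this averages control libraries, where Huh7 was higher by 0.34, with knockdown libraries, where the difference was -0.16. Relative to the median of all genes, the *VTA1* difference was -0.05.

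In order of RPKM in Huh1 control cells the genes were *CHMP2A*, *CHMP4B*, *CHMP2B*, *CHMP5*, *CHMP1A*, *VPS4A*, *VTA1*, *VPS4B*, *CHMP4C* and *CHMP4A*. In Huh7 control cells the order was *CHMP2B*, *CHMP4B*, *CHMP1A*, *VPS4A*, *CHMP2A*, *CHMP4A*, *VTA1*, *CHMP5*, *CHMP4C* and *VPS4B*. Over both libraries of a line, the ranges of *CHMP5*, *CHMP1A* and *VPS4A* overlapped in a chain in Huh1 cells, as did those of *CHMP1A*, *VPS4A*, *CHMP2A* and *CHMP4A* in Huh7 cells, and those of *VPS4B* and *CHMP4C* overlapped in both lines, so those neighbours were not separated. *VTA1* stood 7th in both control libraries and had the lowest level of the 10 genes in Huh7 cells after knockdown. In Huh1 cells after knockdown *VTA1* stood below all but *CHMP4A*, close to *VPS4B* at 8.45 RPKM.

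Of the pathway genes, 30 reached 1 RPKM in both lines, and 19 of these passed between the lines, 13 higher and 6 lower in Huh7 cells. Against the 67.6% of all genes that passed, this count is no result about the lists, and the calls are given to describe each gene. Among the other ESCRT-III genes, *CHMP6*, *CHMP7* and *IST1* were higher and *CHMP1B* was lower in Huh7 cells. Of the ESCRT-I genes, which link ubiquitinated cargo to the later complexes, *TSG101*, *VPS28*, *VPS37B*, *VPS37C* and *MVB12A* were higher and none of the 7 tested was lower. *MVB12B* was read at 0.93 RPKM in both Huh1 libraries and at 2.82 and 2.67 RPKM in Huh7 cells, so it reached the minimum through Huh7 cells alone and has no test. *VPS37B* had the widest gap of the 30, at 4.73 and 6.07 RPKM in Huh1 cells and 14.3 and 18.0 RPKM in Huh7 cells, a log2 difference of 1.43 ± 0.11 (SE; limma adjusted p = 4.73e-06). Of the ESCRT-II genes *VPS36* was higher and *SNF8* and *VPS25* were lower, and of the ESCRT-0 genes, which bind cargo first, *STAM* and *STAM2* were higher. Among the recruiters and partners, *PDCD6IP* (ALIX, which recruits CHMP4) and *MITD1* were higher and *ZFYVE19*, *ULK3* and *USP8* were lower. *ZFYVE19* (ANCHR) and *ULK3* act with CHMP4C in the abscission checkpoint, and *ZFYVE19* was read at 17.0 RPKM in both Huh1 libraries and 7.97 and 8.46 RPKM in Huh7 cells, a difference of -0.97 ± 0.10 (limma adjusted p = 4.51e-05). The calls of *CHMP6*, *VPS28*, *VPS25*, *VPS36*, *ULK3* and *USP8* were lost in at least 1 other setting, with adjusted p between 0.0561 and 0.163. The median difference of the 30 genes was 0.15, against 0.10 over all genes that reached 1 RPKM in both lines.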

How the data were processed

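Per the labels, total RNA of Huh1 and Huh7 cells was made into Illumina TruSeq libraries. The submitters' processing notes name CASAVA 1.8.2, TopHat2 2.0.9 and hg19; the read counter and gene models were not given in the sources used here. The authors deposited 1 table a library with an unlabelled value column, read here as RPKM because 250 to 275 genes a library, taken as 1 to 5 reads over the annotated length, gave the same library total to 0.1 reads. Groups came from the sample titles.

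Values were tested as log2(RPKM + 1) with limma 3.58.1 in R 4.3.3 (trend, Benjamini-Hochberg adjustment), leaving out genes under 1 RPKM in all 4 libraries. Knockdown differences within a line had no test, nor did *VTA1* and *CDCA8* over both lines. Counting intervals (95%) used reads at the GENCODE 29 coding length, the fewest a value can rest on, or whole reads for *CHMP4A*. The fit was run on simulated libraries with known changes and little spread between libraries beyond counting error. That checks the code and gives no error rate for these data. The 10 genes and all lists were chosen with earlier results of these data known. All 10 members were named, and of the pathway lists the genes past the test or past 2-fold, with the 5 genes outside the lists most like *VTA1*. Alternatives were another pseudocount, minimum, scaling, variance trend or covariate, and the plain ratio. RefSeq promoter windows matched 9 of the 10 symbols.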

Additional observations from a re-analysis of the deposited data

Results flagged for a closer look

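The knockdown difference, on the log2(RPKM + 1) scale and as CDCA8-1siRNA minus NCsiRNA, had opposite signs in the lines for 3 members. For *CHMP4C* it was 0.44 in Huh1 cells and -0.17 in Huh7 cells, so Huh7 minus Huh1 was -0.61, with a counting SD of at most 0.31. For *CHMP1A* the values were 0.08 and -0.18, a gap of -0.26 with a counting SD of at most 0.17. For *CHMP2A* they were -0.04 and 0.01, a gap of 0.052 with a counting SD of at most 0.13. With 1 library a condition, none of these differences between lines was tested.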

How the results depend on the processing

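The *VTA1* difference kept its sign and stayed past 2-fold in each line under every alternative run. With a pseudocount of 0.1 RPKM, the genes past 2-fold numbered 107 higher and 57 lower in Huh1 cells and 269 higher and 153 lower in Huh7 cells, and with quantile normalization 22 were higher in Huh1 cells. The limma knockdown calls (454 higher, 322 lower) depended on the fit: 0 and 0 with no minimum, 30 and 15 without the trend, 0 and 0 without cell line in the fit, while 2767 genes had an unadjusted p under 0.05 in the fit as reported. Quantile normalization gave 625 lower. Under all of these, no member that was tested passed the knockdown test, and *VTA1* was not tested. The median Huh7 minus Huh1 difference of all genes was 0.14 as reported, 0.09 with upper quartile scaling and -0.01 with quantile normalization, where the calls were 4358 higher and 4353 lower; there *VTA1* turned to -0.045 (adjusted p = 0.772), and no other member changed sign. Of 279 alternatives for single genes with a test, 260 kept direction and call. Cell line is the pairing term of the limma fit, and the fit without it is given above; no fit with a replicate block could be made because the labels carry no replicate numbers, and with 1 library a condition none could be left out. Among genes at 1 RPKM in both lines, a restriction chosen after seeing the data, the calls between lines were 4040 higher and 2959 lower, against 5162 and 3492. Depth limits *CHMP4A* in Huh1 cells, read from 3 and 2 reads.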
